A study of Homo sapiens with 3 samples.

Results

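The 10 genes described here handle iron at the level of the single cell, and they are the receptors TFRC and TFR2, the reductase STEAP3 and the transporter SLC11A2 for uptake, the ferritin subunits FTH1 and FTL with the ferritin receptor NCOA4 for storage, the transporter SLC40A1 with the ferroxidase HEPH for export, and the regulator IREB2. They were listed by symbol for their known roles, by a rule that sets no threshold on their values, but with earlier results of these data known. All 10 were found among the 62754 genes of the deposited table. RNA-seq was done on MCF10A, an immortalized human breast epithelial line that does not form tumors, in a study that used the transcriptome to decide which enzymes enter a genome-scale metabolic model. The 3 samples are replicates of 1 condition, taken 27 h after seeding in DMEM/F12 medium with mammary epithelial supplements and cholera toxin. Their titles and library names give no batch, and they were treated here as 1 batch. By the labels, the cells carried an empty Retro-X Tet-One vector, were selected with puromycin, and received no doxycycline, so that no gene was overexpressed. With 1 condition there is no group to compare, and nothing in the labels says whether the replicates came from separate cultures, so that their spread may be technical.

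Most cells take up iron as transferrin bound to transferrin receptor 1 at the surface. In the endosome the iron is released, reduced and moved to the cytosol, where it is used, stored inside the ferritin shell or exported by ferroportin. Iron regulatory proteins bind a hairpin called the iron-responsive element in the mRNAs of several of these genes when iron is scarce. In the 5′ UTR this blocks translation, as for ferritin and ferroportin, and in the 3′ UTR it protects the mRNA from decay, as for transferrin receptor 1. For ferritin and ferroportin the mRNA level is therefore a poor guide to the amount of protein.

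The hairpins are shown because an mRNA of uptake (TFRC), 1 of export (SLC40A1) and those of the ferritin subunits (FTH1 and FTL) share them. The canonical transcript of every protein-coding gene in GENCODE release 44 (hg38) was searched on its sense strand for a C, any 5 bases, the letters CAGTG and any 6 bases, in which the 5 bases on either side of the 6-base loop (CAGTG and 1 more base) had to pair, with G and T counted as a pair. It was found 7 times in 4 of the 10 genes. All coordinates are on hg38. Each line gives 27 bases as DNA, 5′ to 3′, with the loop in capitals.
FTH1, 5′ UTR, chr11:61967575-61967601, minus strand: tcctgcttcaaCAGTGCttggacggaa
FTL, 5′ UTR, chr19:48965336-48965362, plus strand: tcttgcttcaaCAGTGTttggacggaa
SLC40A1, 5′ UTR, chr2:189580662-189580688, minus strand: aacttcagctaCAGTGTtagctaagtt
TFRC, 3′ UTR, chr3:196050980-196051006, minus strand: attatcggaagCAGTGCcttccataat
TFRC, 3′ UTR, chr3:196050576-196050602, minus strand: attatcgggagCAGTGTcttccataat
TFRC, 3′ UTR, chr3:196050511-196050537, minus strand: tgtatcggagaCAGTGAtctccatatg
TFRC, 3′ UTR, chr3:196050464-196050490, minus strand: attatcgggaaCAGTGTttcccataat
The stretches of FTH1 and FTL were identical at 25 of 27 bases. That of SLC40A1 was identical to FTH1 at 13 of 27 bases. The 4 of TFRC were identical to each other at 17 to 25 bases. Across all 20046 canonical transcripts, the hairpin was present in the 5′ UTR of 19 (0.0948%) and in the 3′ UTR of 123 (0.614%), while the letters CAGTG alone were present somewhere in 93.7%. A match of letters and pairs is a description of the reference sequence and not a measured binding site. The other 6 genes held no match in the canonical transcript under this definition, which says nothing of hairpins with other pairing or in other isoforms.

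The authors deposited TPM, a unit of reads per transcript length that sums to 1000000 in each replicate. Multiplied by gene length, the values returned whole numbers in all replicates, which were taken as reads and summed to 15273329, 15446347 and 11166546. Replicate 3 stood apart from the others. In it the short non-coding RNA RN7SL1 took 150632 TPM, against 49293 and 56610 TPM in replicates 1 and 2. Of the 8809 genes that averaged 10 TPM or more, 82.8% were lower in replicate 3 than in both others, with a median shift on the log2 scale of -0.25 from replicate 1 and -0.24 from replicate 2. The basal epithelial markers KRT5, KRT14, KRT17, ITGA6, TP63 and CDH1 were all above the cutoff of 1 TPM used in the study, with means from 29.1 to 6612 TPM.

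Of the 10 iron genes, 7 reached 1 TPM by their mean, as did 56.7% of protein-coding genes and 24.9% of all genes measured. Storage genes and, apart from TFR2, uptake genes were above this level, and the exporter SLC40A1 was not detected. In falling order of the mean, the 7 were FTH1, FTL, NCOA4, TFRC, STEAP3, IREB2 and SLC11A2, and each reached 1 TPM in all 3 replicates, as did 55.2% of protein-coding genes. The other 3, HEPH, SLC40A1 and TFR2, were below it in all 3. The 7 means spanned from 15.4 TPM for SLC11A2 to 4560 TPM for FTH1. On the log2(TPM + 1) scale, each gene of this order exceeded the next by more than the larger SD of the pair and in every replicate. An exact sign-flip permutation test over 3 replicates cannot give a two-sided p below 0.25, so the order is a description. It depends on the gene lengths in 1 place, the pair of NCOA4 and TFRC. In bulk RNA, fewer cells with a transcript and less of it per cell cannot be told apart.

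**Figure D1:**
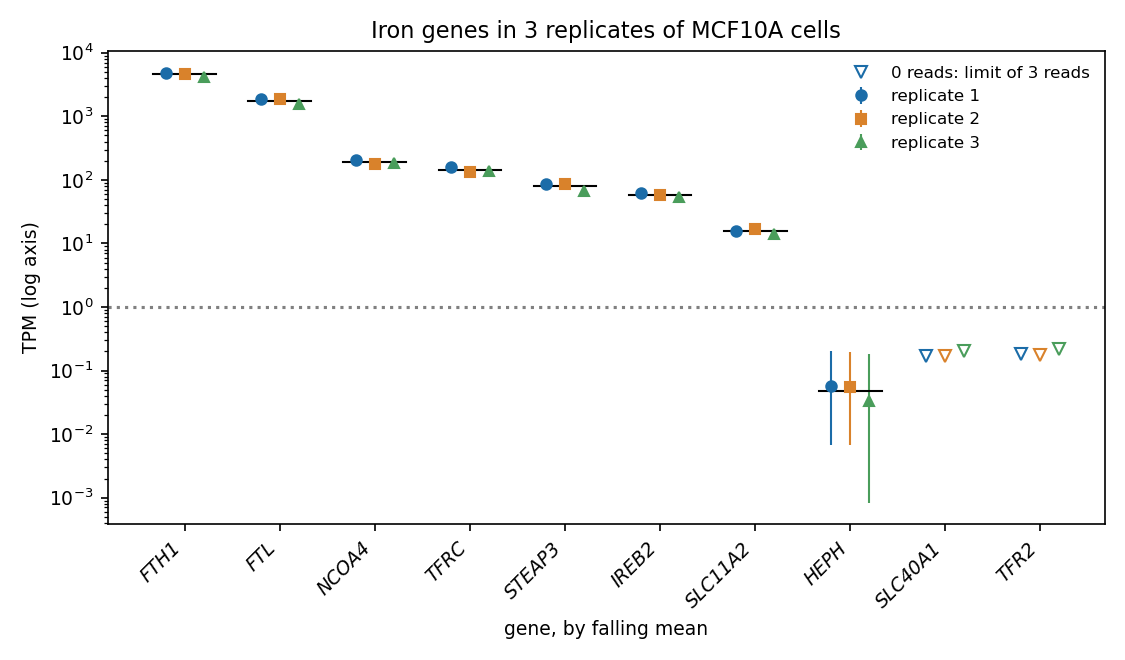
TPM (log axis) of each iron gene in replicates 1, 2 and 3 of MCF10A cells, with the mean as a black line and 95% exact Poisson intervals of the reads as bars, mostly smaller than the points. Open triangles are the limit of 3 reads where a gene had 0 reads, and the dotted line is 1 TPM. The 7 genes from FTH1 to SLC11A2 lie well above the line, and HEPH, SLC40A1 and TFR2 lie below it in every replicate.

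FTH1 and FTL encode the heavy and light subunits of ferritin, of which the heavy subunit oxidizes iron and the light subunit helps the iron core to form. FTH1 (ENSG00000167996, chr11:61959718-61967634, minus strand) was measured at 4875, 4703 and 4103 TPM, the order of replicates 1, 2 and 3 used throughout, and had 30805, 30549 and 22062 reads. The lowest value was that of replicate 3, and the mean was 4560 ± 405 TPM (SD, n = 3). It ranked 12 among the 20046 protein-coding genes. FTL (ENSG00000087086, chr19:48965309-48966879, plus strand) was measured at 1882, 1892 and 1541 TPM, from 8602, 8886 and 5992 reads. Its mean was 1772 ± 200 TPM (SD, n = 3), at rank 52, and replicate 3 was again the lowest.

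The ratio of FTH1 to FTL was 2.59, 2.49 and 2.66 in the 3 replicates. Its mean was 2.58 ± 0.0887 (SD, n = 3), and FTH1 was the higher in every replicate. A ratio within a replicate does not contain the general shift of replicate 3. Together the subunits summed to 6757, 6595 and 5644 TPM. This was 0.738%, 0.734% and 0.709% of the TPM on protein-coding genes. Of the TPM that the 10 iron genes held in all, 92.9% ± 0.462 (SD, n = 3) was on the 2 ferritin genes.

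Ferritin reads are uncertain in 2 ways. The human genome carries many processed copies of both genes, and the annotation names 25 FTH1P and 16 FTLP pseudogenes that are in the table. Of windows of 50 bases along the canonical transcript, 41.3% for FTH1 and 18.5% for FTL occur letter for letter in a transcript of such a pseudogene. How the authors' counting treated reads that fit several places is not given in the sources used here. The reads listed on the 41 pseudogenes were few, with 102, 104 and 69 in the 3 replicates. This was 0.258%, 0.263% and 0.245% of all reads on ferritin genes and pseudogenes, and 25 of the 41 had 0 reads. The highest were FTH1P20, with 22, 15 and 14 reads, and FTH1P3, with 13, 25 and 13 reads. In addition, 73.2% of the FTH1 transcript lies opposite to exons of BEST1 on the other strand. BEST1, a chloride channel gene, was listed at 1.51, 1.18 and 0.425 TPM, far below FTH1.

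NCOA4 (ENSG00000266412, chr10:46005088-46030623, minus strand) encodes the receptor that takes ferritin to lysosomes, where its iron is set free. Its level was 203, 176 and 187 TPM, from 3717, 3311 and 2911 reads. Unlike the ferritin genes it was lowest in replicate 2, and its mean was 188 ± 13.6 TPM (SD, n = 3). FTH1 exceeded it by 24.0-, 26.8- and 22.0-fold in replicates 1, 2 and 3. Of its 50-base windows, 5.66% occur in transcripts of the pseudogenes NCOA4P3 and NCOA4P4.

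On the side of uptake, TFRC (ENSG00000072274, chr3:196012511-196082153, minus strand), transferrin receptor 1, was measured at 159, 133 and 139 TPM, from 5753, 4925 and 4268 reads. Replicate 1 was the highest and replicate 2 the lowest, with a mean of 144 ± 13.9 TPM (SD, n = 3) at rank 1014. No 50-base window of TFRC was shared with another gene. NCOA4 exceeded TFRC by 1.27-, 1.32- and 1.34-fold. The length at which whole reads were recovered for TFRC was 6854 bases (its longest annotated transcript, less 1 base per exon), where the canonical transcript has 5012. With reads divided by the canonical length of each gene, TFRC was at 177, 147 and 158 TPM and NCOA4 at 166, 143 and 156 TPM. TFRC was then the higher in every replicate, by 1.04-fold on average, so the order of this pair is set by the choice of length.

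TFR2 (ENSG00000106327, chr7:100620416-100642779, minus strand) encodes transferrin receptor 2, which senses iron-loaded transferrin chiefly in liver and erythroid cells. It had 0 reads in each replicate, as did 26.2% of protein-coding genes, and shared neither exons with another gene nor any 50-base window. With 3 reads as the limit in each library, this allows up to 0.183, 0.178 and 0.215 TPM, for counting error only. TFRC was at least 646-fold higher than TFR2 in the replicate with the lowest bound and at least 871-fold higher in that with the highest.

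STEAP3 (ENSG00000115107, chr2:119223831-119265652, plus strand), the endosomal reductase that turns ferric into ferrous iron, was measured at 85.1, 85.6 and 67.95 TPM, from 1908, 1972 and 1296 reads. Replicate 3 was the lowest, and the mean was 79.6 ± 10.05 TPM (SD, n = 3). A stretch of 11.7% of its transcript lies opposite to STEAP3-AS1, which was listed at 0.236 TPM in replicate 1 and at 0 in the others. SLC11A2 (ENSG00000110911, chr12:50979401-51028566, minus strand), the divalent metal transporter that carries the reduced iron out of the endosome, was measured at 15.6, 16.6 and 14.03 TPM, from 338, 371 and 259 reads. Its mean was 15.4 ± 1.31 TPM (SD, n = 3). Along the transferrin route the levels thus fell from receptor to reductase to transporter. TFRC exceeded STEAP3 by 1.82 ± 0.251-fold and SLC11A2 by 9.36 ± 1.22-fold (SD, n = 3 each). These folds depend on the lengths used. With the canonical length of each gene, TFRC, STEAP3 and SLC11A2 averaged 161, 65.0 and 12.6 TPM, in the same order but further apart. SLC11A2 is made as mRNAs with and without an iron-responsive element, and values per gene do not tell these isoforms apart.

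SLC40A1 (ENSG00000138449, chr2:189560590-189583758, minus strand) encodes ferroportin, the only iron exporter known in mammals. It had 0 reads in replicates 1, 2 and 3. With 3 reads as the limit in each library, up to 0.171, 0.167 and 0.201 TPM would go undetected. Its canonical transcript shared no exon with another gene on either strand and no 50-base window. The receptor TFRC was thus at least 929-, 796- and 690-fold higher than the exporter in the 3 replicates, by that limit. HEPH (ENSG00000089472, chrX:66162671-66268867, plus strand), hephaestin, oxidizes iron as it leaves through ferroportin. It had 2, 2 and 1 reads, which is 0.0564, 0.0548 and 0.0331 TPM, with 95% exact Poisson intervals that reach up to 0.204, 0.198 and 0.185 TPM. The 3 measured values lie below the 3-read limits of SLC40A1 and TFR2 in the same replicates, so the order among these 3 genes was not detectable at this depth.

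IREB2 (ENSG00000136381, chr15:78437431-78501453, plus strand) encodes iron regulatory protein 2, which is degraded when iron is plentiful. It was measured at 61.2, 57.3 and 52.8 TPM, from 2032, 1957 and 1492 reads, with a mean of 57.1 ± 4.20 TPM (SD, n = 3). Its partner ACO1, which is iron regulatory protein 1 and with an iron-sulfur cluster a cytosolic aconitase, was at 24.9 ± 2.16 TPM (SD, n = 3). IREB2 was the higher in every replicate, by 2.24-, 2.49- and 2.17-fold. FBXL5, which marks IREB2 protein for degradation in iron-rich cells, was at 61.0 ± 3.87 TPM (SD, n = 3), about the level of IREB2. CUL1, at 127 ± 10.3 TPM, and RBX1, at 78.5 ± 4.35 TPM (SD, n = 3 each), encode subunits of the ligase that FBXL5 belongs to. Each of the 5 genes listed for this control reached 1 TPM, as did 56.7% of protein-coding genes. The lowest of them, SKP1, was at 6.11 TPM with a length of 9380 bases, taken in the same way as for TFRC.

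For the 7 genes at or above 1 TPM, the SD of log2(TPM + 1) between replicates lay between 0.10 for NCOA4 and 0.19 for STEAP3. Their median was 0.13, beside medians of 0.16 for protein-coding genes and 0.19 for all genes that averaged 1 TPM or more. These sets were not matched for level, since such protein-coding genes had a median of 24.9 TPM, below all of the 7 but SLC11A2. Of the 7, 5 were lowest in replicate 3, the direction of 82.8% of genes at their level. A chi-square test of reads against equal TPM, with Benjamini-Hochberg adjustment over 15802 genes, called 6 of the 7 genes different between replicates, all but SLC11A2 (adjusted p = 0.164). The same test called 54.3% of all genes, and it covers counting error only, so that highly counted genes are called for small shifts. After each replicate was centred on its median log2 deviation over genes with at least 10 TPM, 3 of the 7 were called, against 31.2% of all genes. The chi-square test with centring called TFRC (adjusted p = 8.94e-25), NCOA4 (adjusted p = 3.75e-16) and FTH1 (adjusted p = 0.0086).

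Among the 7 iron genes at or above 1 TPM, TFRC and NCOA4 departed from the rest in the same replicates. Relative to the median gene, TFRC was at 0.06, -0.18 and 0.12 on the log2 scale in replicates 1, 2 and 3. NCOA4 was at 0.02, -0.17 and 0.15. Both were thus low in replicate 2 and high in replicate 3 once the general shift was removed. The pattern was not particular to them. FBXL5, ACO1 and RBX1 were also lowest in replicate 2, with replicate 3 above it by 0.15, 0.08 and 0.06 on the log2 scale as deposited. For TFRC and NCOA4 this was 0.07 and 0.09, where the median gene was at -0.24. CUL1 and SKP1, listed with FBXL5, were lowest in replicate 3. Of the other uptake genes described below, HFE was also lowest in replicate 2, and SLC39A14 and SLC39A8 were lowest in replicate 3. The share of all genes with the pattern of TFRC and NCOA4 was not counted. FTH1 was at 0.01, -0.03 and 0.01, and FTL lay between -0.03 and 0.03. Without replicate 3, 3 genes were called instead of 6. The share of all genes called without replicate 3 was not counted. The median SD of the 7 was 0.0631 without replicate 3 and 0.0598 after centring. No median over all genes was computed for these settings.

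**Figure D2:**
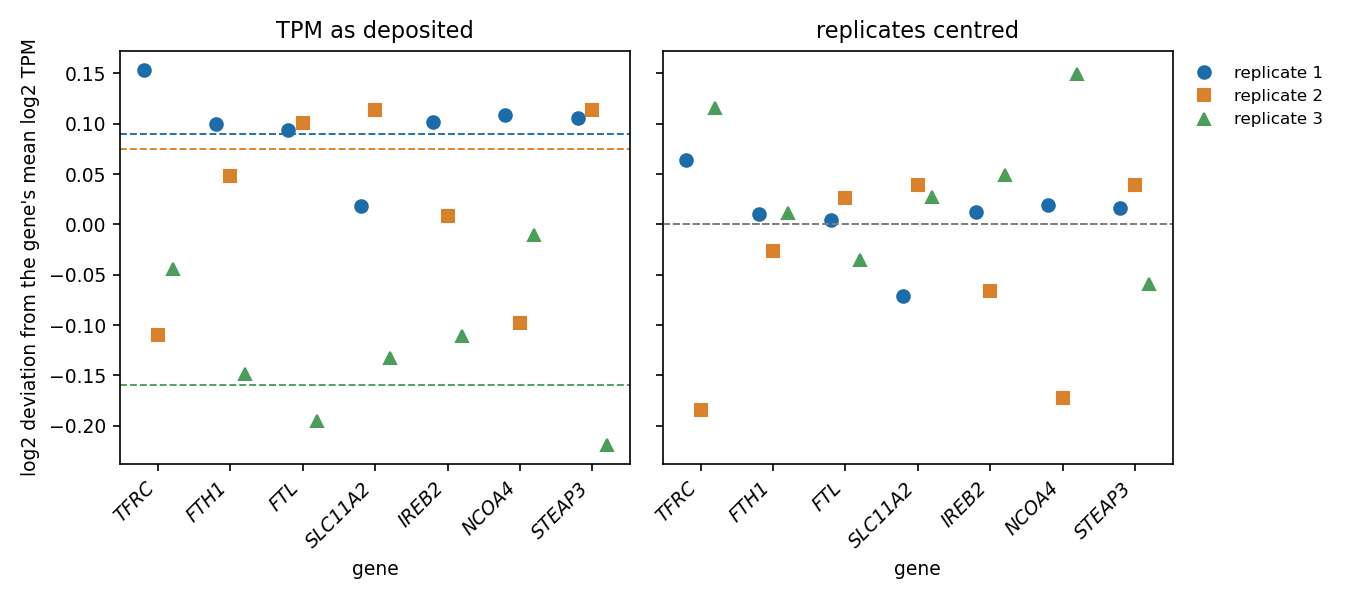
Log2 deviation of each replicate from the mean log2 TPM of the gene, for the 7 iron genes at or above 1 TPM, as deposited (left) and after centring of each replicate on the median gene with at least 10 TPM (right). Dashed lines mark that median gene in replicates 1, 2 and 3, at 0.09, 0.07 and -0.16 on the left. After centring, replicate 2 is low for TFRC (-0.18) and NCOA4 (-0.17), and the other 5 genes lie between -0.07 and 0.05.

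Other genes of iron handling were read from 10 lists of 81 genes in all, of which 65 averaged 1 TPM or more, beside 56.7% of protein-coding genes. Among other uptake genes 8 of 13 did, a share near that of protein-coding genes. The highest were the zinc and iron transporters SLC39A14, at 118, 108 and 101 TPM, and SLC39A8, at 53.9, 52.0 and 46.5 TPM. SLC39A14, which can carry iron not bound to transferrin, exceeded SLC11A2 by 7.11 ± 0.550-fold (SD, n = 3) and lay below TFRC in every replicate. HFE, a partner of transferrin receptors, was at 6.23 ± 1.19 TPM (SD, n = 3). TF, which encodes transferrin itself and is a product of the liver, had 1 read in replicate 1 and 0 in the others.

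Of the partners of ferritin and its iron, 4 of 6 averaged 1 TPM or more, beside 56.7% of protein-coding genes. The chaperones PCBP1 and PCBP2, which hand iron to ferritin, were at 518 ± 61.3 and 144 ± 13.3 TPM (SD, n = 3 each). PCBP1 was the higher in every replicate. Of the PCBP2 transcript, 27.3% overlaps exons of same-strand neighbours and 47.3% lies opposite to MAP3K12. Of the PCBP1 transcript, 73.2% lies opposite to PCBP1-AS1, listed at 6.75 TPM on average. What these overlaps do to the difference was not tested. PCBP3 lay on both sides of the cutoff, at 1.01, 1.14 and 0.295 TPM from 12, 14 and 3 reads. FTMT, the ferritin of mitochondria, had 0 reads in each replicate.

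Of 3 partners of export, 1 reached 1 TPM, beside 56.7% of protein-coding genes. CP, which encodes the plasma ferroxidase ceruloplasmin, had 0 reads in each replicate, and HEPHL1, a relative of HEPH, had 1 read in replicate 1 and 0 in the others. RNF217, a ubiquitin ligase that acts on ferroportin, was at 7.73 ± 0.477 TPM (SD, n = 3). Of the hepcidin axis, which controls ferroportin from the liver, 3 of 7 genes reached 1 TPM, beside the same 56.7%. The highest were NEO1 at 31.4 ± 2.10 TPM and ERFE at 4.85 ± 0.456 TPM (SD, n = 3 each). HAMP, which encodes hepcidin, had 0, 1 and 1 reads.

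Of 4 further mRNAs reported to carry iron-responsive elements, 3 averaged 1 TPM or more, beside 56.7% of protein-coding genes. EPAS1, the hypoxia-inducible factor 2 alpha, was at 90.5, 89.2 and 73.6 TPM, with a mean of 84.4 ± 9.37 TPM (SD, n = 3). CDC42BPA, a kinase of the cytoskeleton, was at 55.1 ± 5.84 TPM (SD, n = 3). In the canonical transcripts of this list, the hairpin as defined above was present in the 5′ UTR of ALAS2, which had 0 reads in each replicate, and in the 3′ UTR of CDC14A, at 2.72 TPM on average, and in neither EPAS1 nor CDC42BPA.

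**Figure D3:**
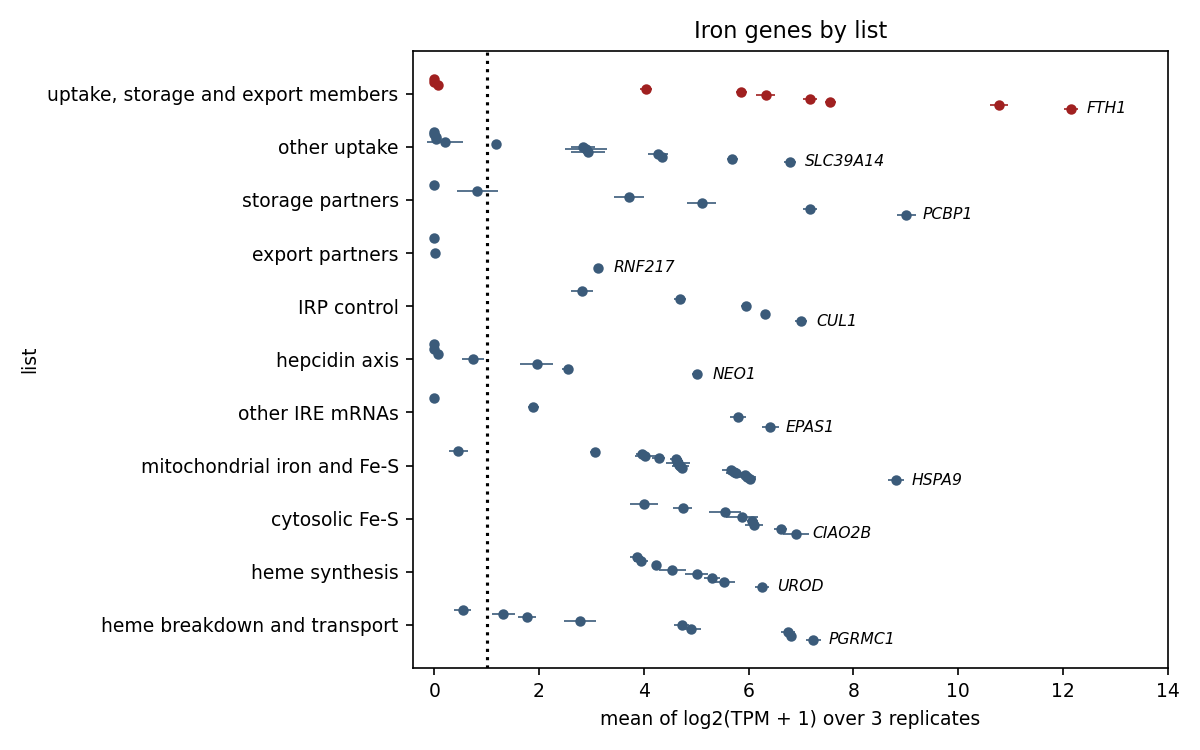
Mean and SD (n = 3) of log2(TPM + 1) for the 10 iron genes (red) and 10 lists of other genes of iron handling (blue), with the highest gene of each list named and a dotted line at 1 TPM. FTH1 lies above every gene of the other lists. Of the export partners 1 of 3 and of the hepcidin axis 3 of 7 lie above the line, beside 56.7% of protein-coding genes.

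Liver, erythroid and macrophage markers were read because these cell types express genes such as TFR2, HAMP and SLC40A1 strongly. Why SLC40A1 and TFR2 had 0 reads in MCF10A cells was not tested. Of 5 liver markers, ALB and TTR had 0 reads in each replicate, APOA1 and APOB at most 2 reads in a replicate, and SERPINA1 alone was above 1 TPM, at 70.8 ± 7.43 TPM (SD, n = 3). The list summed to between 63.1 and 77.6 TPM. Of 5 erythroid markers, 4 had 0 reads in each replicate, and the list summed to at most 0.229 TPM. Of 5 macrophage markers, CSF1R and CD14 were above 1 TPM, and the list summed to between 5.49 and 7.35 TPM, with PTPRC at 0.0728 TPM on average. Fibroblast and endothelial markers summed to at most 5.84 and 2.16 TPM.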

How the data were processed

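RNA-seq libraries were prepared from 300 ng of RNA, with a kit that removes ribosomal RNA, in 3 replicates of MCF10A cells. By the study's methods the authors used Seq2science for mapping (genome hg38) and counting, and the submitters' processing notes name STAR, fastp and MultiQC. The authors deposited TPM values for 62754 genes, without pooling replicates and with no column left unused here. The annotation release, the gene length and the use of strand are not given in the sources used here. Columns were matched to samples by library name.

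Symbols, lengths and transcript sequences were taken from GENCODE release 44 (hg38), in which 62700 genes were found and 54 were not. TPM times length (longest transcript, less 1 base per exon) was divided by its smallest value above 0, which gave whole numbers within 0.01 for 100% of values. These were taken as reads, which rests on that step being 1 read. Spread was the SD of log2(TPM + 1). Genes with at least 15 reads in all entered a chi-square test of equal TPM, adjusted by Benjamini-Hochberg over these genes at 0.05. A gene with 0 reads was given a limit of 3 reads per replicate. Intervals and limits cover counting error only. No test between conditions was possible.

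The named genes are the 10 members, the 2 highest of each list, genes with replicates on both sides of 1 TPM and a short fixed set, and the 2 pseudogenes with the most reads. SKP1, PPOX, FDX2, ALAS2, CDC14A, the markers and genes opposite to a named gene were added to these. A gene of 1 list is not reported here and was left out of its counts. The members and lists were chosen with earlier results of these data known. Alternatives covered the cutoff, the TPM total, the gene length, the pseudocount, the filter on low values, centring, the minimum of reads, pseudogenes and leaving out each replicate. The scripts were tested on simulated data. Software was scipy 1.17.1, matplotlib 3.10.9, pandas 2.3.3 and numpy 2.4.6 under Python 3.11.15.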

Additional observations from a re-analysis of the deposited data

How the results depend on the processing

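No paired analysis was possible because the study holds 1 condition, in 3 replicates. The count of iron genes at or above 1 TPM was 7 under every alternative tried, and that of the other listed genes lay between 63 and 67. The order of the levels was the same under all alternatives but the canonical transcript length, under which NCOA4 and TFRC changed places and the log2 ratio of NCOA4 to TFRC reversed from 0.39 to -0.0508, through the shorter length of TFRC. The same setting raised the log2 bound for TFRC over SLC40A1 from 9.64 to 10.10, and it lay between 9.53 and 9.75 when 1 replicate was left out. The log2 ratio of FTH1 to FTL lay between 1.34 and 1.39. With the canonical length, the means of all 7 iron genes at or above 1 TPM moved by more than their SD. FTH1 fell from 4560 to 3719 TPM and FTL from 1772 to 1443 TPM. With protein-coding genes only, FTH1 and FTL summed to 7272 TPM instead of 6332, since non-coding genes such as RN7SL1 leave the total. All 7 means moved by more than their SD in this setting too. The median SD of 0.131 was 0.0630 in this setting and 0.0598 after centring, and between 0.0631 (without replicate 3) and 0.148 with 1 replicate left out. The number of iron genes whose reads differed between replicates was 6, and 3 after centring, beside 54.3% and 31.2% of all genes tested. With 1 replicate left out it lay between 3 (without replicate 3) and 6. The share of all genes called was not counted with 1 replicate left out. Depth limits HEPH, SLC40A1 and TFR2, with at most 2 reads in a replicate.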

Other observations

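Iron that enters the cell is used largely in iron-sulfur clusters and heme, and the genes for both were broadly present. Of 18 genes of mitochondrial iron import and iron-sulfur cluster assembly, 17 had a mean of at least 1 TPM, where 56.7% of protein-coding genes did. The highest were HSPA9, a mitochondrial chaperone, at 450 ± 46.0 TPM, and ISCA1, a late assembly factor, at 64.4 ± 5.04 TPM (SD, n = 3 each). The gene below the cutoff was FDX2, named after its value was seen, a ferredoxin at 0.384 TPM that shares 95.2% of its transcript with other genes on the same strand. All 8 genes of cytosolic iron-sulfur assembly were at or above 1 TPM, with CIAO2B at 120 ± 20.8 and CIAPIN1 at 97.1 ± 8.65 TPM (SD, n = 3 each) the highest.

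All 8 enzymes of heme synthesis were at or above 1 TPM, beside 56.7% of protein-coding genes. They lay between 13.6 TPM for PPOX and 75.4 TPM for UROD, which was followed by UROS at 45.7 TPM. Of 9 genes of heme breakdown and transport 8 were at or above 1 TPM, led by PGRMC1 at 150 ± 14.6 TPM (SD, n = 3). The heme oxygenases differed widely. HMOX2, the constitutive form, was at 112, 119 and 104 TPM, and HMOX1, the form induced by heme and oxidative stress, at 2.35, 2.07 and 2.90 TPM. HMOX2 was thus 46.9 ± 10.8-fold higher (SD, n = 3), and higher in every replicate.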
